A study of Mus musculus with 2 samples.

Results

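The genes described here are the ligands and receptors of the CXCR2 chemokine axis, 8 genes taken by symbol from the 32285 genes listed in the deposited matrices. They comprise the ligands Cxcl1, Cxcl2, Cxcl3, Cxcl5 and Ppbp, the signalling receptors Cxcr1 and Cxcr2, and the atypical receptor Ackr1. All 8 had at least 1 UMI (unique molecular identifier, the count of a captured mRNA molecule) in 3 or more kept cells, as did 24255 genes in all. Their messages were followed by cell class in single cells from mouse calvarial defects, to set the cells that transcribed the ligands beside the cells that transcribed the receptors.

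Both libraries came from male C57BL/6 mice of 2 months (the study names them C57BL/6J) with a 1.8 mm defect of the frontal bone and were made from tissue taken at 7 days, each from 5 pooled mice. One library (GA) came from mice injected intraperitoneally each day for 1 week with gambogic amide, a small molecule agonist of the neurotrophin receptor TrkA, at 1.2 mg/kg in 10% DMSO per the labels, from 24 h before the injury. The methods of the study give a higher dose, so the dose is uncertain. The other library (control) came from mice given 10% DMSO. The drug was given systemically and not to the defect alone, and no uninjured animal was included in these libraries. Each condition was therefore represented by 1 library in which animals could not be told apart, and no test between conditions was possible. The intervals given are 95% intervals for counting error alone and do not contain the variation between mice or between libraries.

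CXCR2 is a G protein-coupled receptor through which neutrophils leave the bone marrow and migrate into injured tissue. In the mouse its ligands are small secreted ELR-motif chemokines, made by stromal cells, macrophages and neutrophils themselves on stimulation by interleukin-1, TNF or microbial products, largely through NF-kappaB. Ppbp encodes platelet basic protein, the precursor of CXCL7, and is stored in platelet granules. CXCR1 is the closely related second receptor, whereas ACKR1, the Duffy antigen, binds many chemokines on venular endothelium and erythroid cells without coupling to G proteins.

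The 5 ligand genes lie in the same chemokine cluster on the plus strand of chromosome 5 within 146.6 kb (GRCm38), from Cxcl5 (90759360 to 90761624) and Ppbp (90768518 to 90770063) to Cxcl3 (90786103 to 90789600), Cxcl1 (90891241 to 90893115) and Cxcl2 (90903871 to 90905938). Cxcr2 (74153989 to 74161246, plus strand) and Cxcr1 (74191785 to 74194631, minus strand) are neighbours on chromosome 1, and Ackr1 (173331886 to 173333750, minus strand) lies on the same chromosome. The sequences below are the 120 bases before the RefSeq transcript start (GRCm38.p6, strand of the gene) of the 3 ligands that hold an NF-kappaB-like motif there, and of Ppbp and Cxcr2, which do not; they are shown so that the ligands with and without the motif can be read beside the receptor. Capitals mark matches on either strand to GGGNNTTTCC, a common form of the NF-kappaB site. GGGAATTTCC was the match that Cxcl1, Cxcl2 and Cxcl3 shared, and it is contained in that pattern.
Cxcl1, chr5:90891125-90891244, plus strand: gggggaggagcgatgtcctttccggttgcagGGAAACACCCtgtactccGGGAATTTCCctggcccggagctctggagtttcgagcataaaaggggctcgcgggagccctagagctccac
Cxcl2, chr5:90903779-90903898, plus strand: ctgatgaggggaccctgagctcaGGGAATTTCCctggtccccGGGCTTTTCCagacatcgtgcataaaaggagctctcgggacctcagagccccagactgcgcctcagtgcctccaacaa
Cxcl3, chr5:90785981-90786100, plus strand: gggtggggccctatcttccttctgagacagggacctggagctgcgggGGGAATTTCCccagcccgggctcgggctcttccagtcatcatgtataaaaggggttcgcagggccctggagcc
Ppbp, chr5:90768398-90768517, plus strand: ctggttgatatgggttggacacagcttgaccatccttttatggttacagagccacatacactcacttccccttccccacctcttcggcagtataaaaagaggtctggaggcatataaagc
Cxcr2, chr1:74153874-74153993, plus strand: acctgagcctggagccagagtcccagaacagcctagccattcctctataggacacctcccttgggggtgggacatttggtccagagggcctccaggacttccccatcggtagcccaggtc

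GGGAATTTCC was found on the gene's strand from 71 to 62 bases before the start of Cxcl1, from 97 to 88 bases before that of Cxcl2 and from 73 to 64 bases before that of Cxcl3. The looser pattern gave 1 more match in Cxcl1, on the opposite strand, and 1 more in Cxcl2. Of 32851 promoter windows of 300 bases in the RefSeq table, which cover 27025 genes, 29 (0.0883%) held GGGAATTTCC and 535 (1.63%) held GGGNNTTTCC. Of the 7 members in that table, Cxcl1, Cxcl2 and Cxcl3 held either motif, and Ppbp, Cxcr1, Cxcr2 and Ackr1 held neither. GGGAATTTCC was read from the promoters of Cxcl1, Cxcl2 and Cxcl3 themselves, so that they held it was fixed in advance. Its share over all windows is therefore no measure of enrichment in these genes. Cxcl5 was not matched in that table. These matches describe letters in the windows and not occupied sites.

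After removal of empty, damaged and doublet barcodes, 8362 cells were kept in the GA library and 7529 in the control library, with medians of 10409 and 15964 UMIs per cell and totals of 154037744 and 180178802 UMIs. The libraries shared 23 barcodes. Clusters were made without the 8 members and named from marker genes. Neutrophil-like cells formed 52.0% of cells in GA (4347) and 26.7% in control (2013), whereas mesenchymal lineage cells formed 9.75% (815) and 23.7% (1783). Neutrophil marker RNA was also present outside neutrophils. It was higher in GA in mesenchymal lineage cells, at 827 and 207 summed CPM, and in macrophage-like cells, at 1056 and 333. It was lower in GA in erythroid-like cells, at 1031 and 2984, and in promyelocyte- or granulocyte-monocyte progenitor-like cells, at 44480 and 49780. CPM is a gene's UMIs per 1000000 UMIs of the same cell class in the same library. Low member levels in classes that should lack a gene are therefore given beside the level in B cells.

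Pooled over all kept cells, 3 of the 8 members differed by more than 2-fold between libraries, against 13.5% of the 18248 genes with at least 50 UMIs. Cxcr2 stood at 138 CPM in GA and 37.7 CPM in control, Cxcr1 at 1.19 and 0.194 CPM, and Cxcl5 at 66.8 and 235 CPM. These pooled values depend on the number of neutrophil-like and mesenchymal lineage cells as well as on the levels within them. The comparisons that follow are within a class. In the class that held most of each message the difference was smaller, with a log2 ratio of 0.19 for Cxcr2 and 0.92 for Cxcr1 in neutrophil-like cells and of -0.92 for Cxcl5 in mesenchymal lineage cells, against 1.87, 2.61 and -1.81 over all cells.

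**Figure D1:**
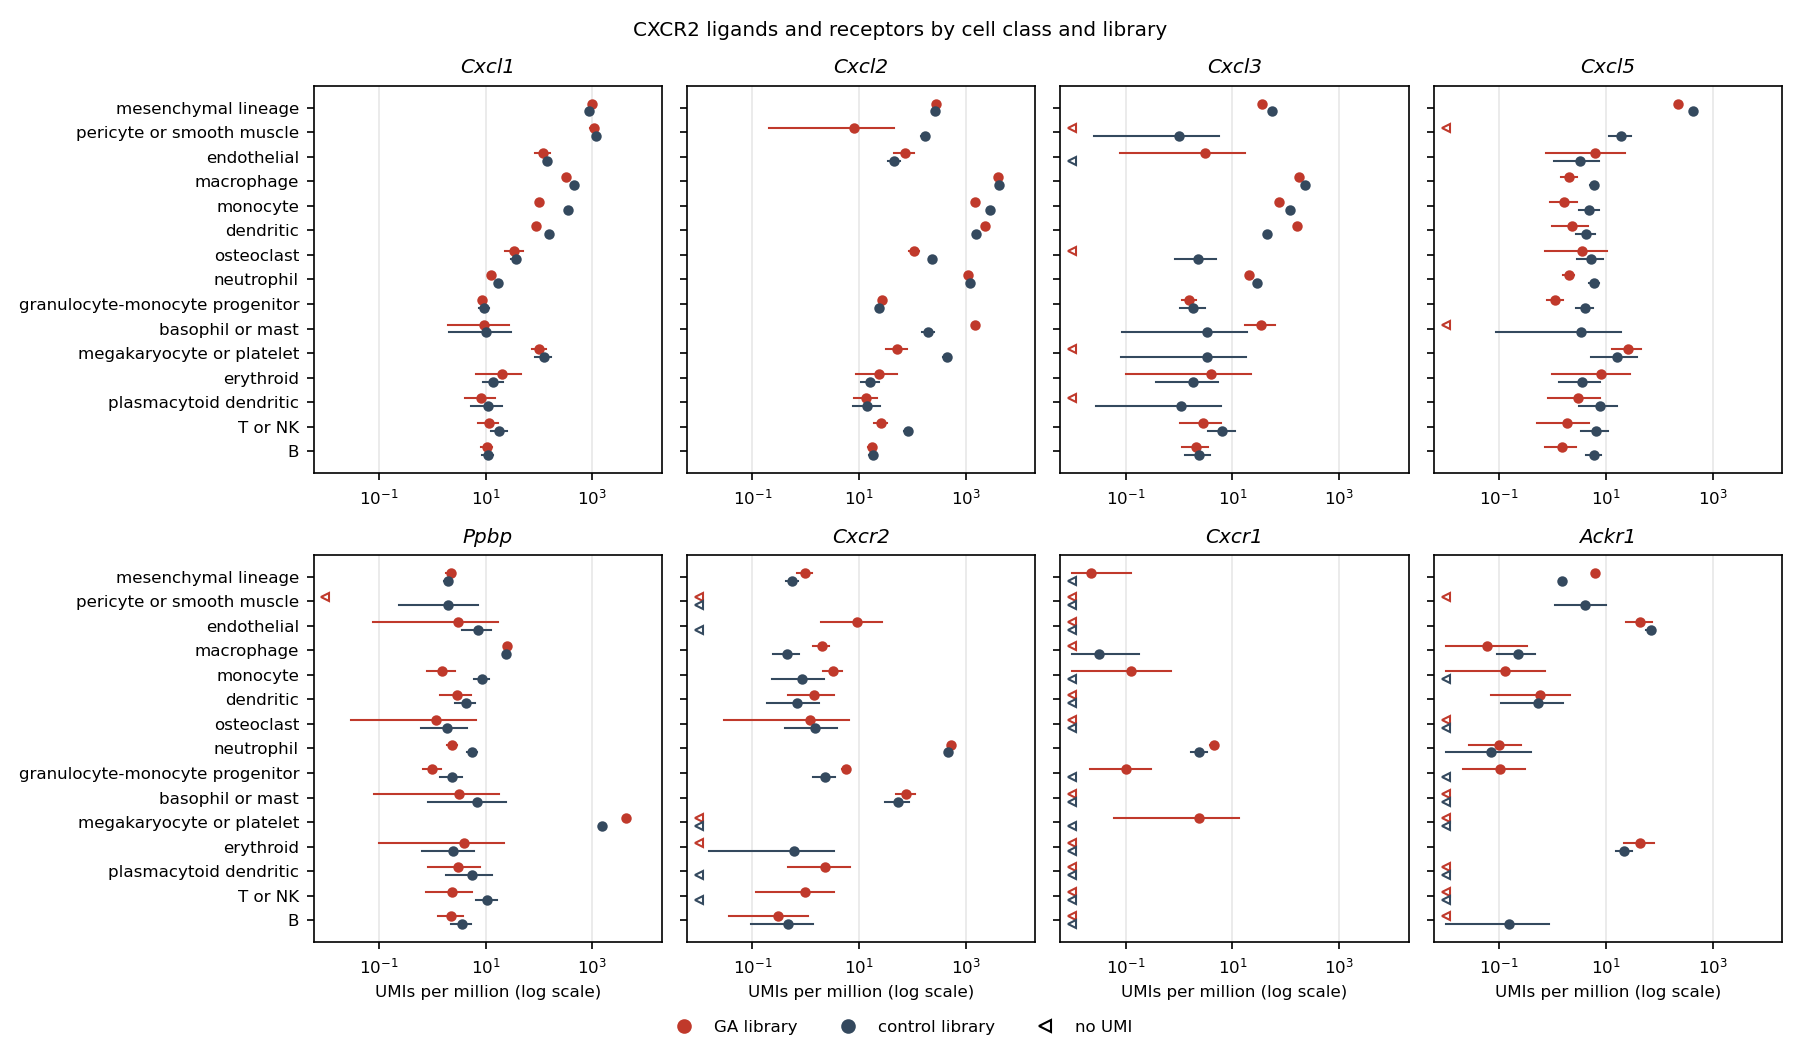
Level of each member in each cell class, in CPM on a log axis, for the GA and control libraries, with bars for the exact 95% Poisson interval and open triangles where no UMI was counted. Cxcl1 peaks in pericyte-like and mesenchymal lineage cells, Cxcl5 in mesenchymal lineage cells, Cxcl2 in macrophage-like cells, Ppbp in megakaryocyte- or platelet-like cells and Cxcr2 in neutrophil-like cells, and the libraries lie close together in most classes with many cells.

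Cxcl1, the main neutrophil attractant of stimulated fibroblasts, was mostly a mesenchymal message in this tissue. Mesenchymal lineage cells held 84.9% of its UMIs in the GA library and 81.9% in the control library, and macrophage-like cells held 10.6% and 13.3%. Its level in mesenchymal lineage cells was 969 CPM (960 to 978) in GA and 873 CPM (867 to 879) in control. The log2 ratio of GA over control was 0.15 (0.13 to 0.17), well inside the range from -0.45 to 0.40 that held the middle 80% of genes in these cells. In most named groups of the lineage Cxcl1 was lower in GA, as given below. When every cell was thinned to 2000 UMIs, a Cxcl1 UMI was present in 50.8% of mesenchymal lineage cells from GA and 47.1% of those from control, against 3.06% and 2.72% of B cells. The median depth of mesenchymal lineage cells was 51147 and 50697 UMIs and that of B cells 6564 and 6031 UMIs. Pericyte- or smooth muscle-like cells had 1095 CPM in GA, from 6 cells, and 1189 CPM in control, from 42 cells.

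In macrophage- and monocyte-like cells, each taken as a class, Cxcl1 was lower in the GA library. It stood at 325 CPM (316 to 333) in GA and 444 CPM (437 to 452) in control macrophage-like cells, a log2 ratio of -0.45. Monocyte-like cells had 101 CPM in GA and 355 CPM in control, a log2 ratio of -1.81 (-1.94 to -1.69). Few cells carried that message, since the 5 cells with the most UMIs held 515 of 787 UMIs in GA and 788 of 1661 in control; without those cells the log2 ratio was -2.43. The monocyte-like class was not equally pure in the libraries. Its summed macrophage marker RNA was 1100 CPM in GA and 1787 CPM in control, and its neutrophil marker RNA 3624 and 570 CPM. The part of this mixture in the ratios of Cxcl1 and other members in that class was not tested. Macrophage- and monocyte-like cells clustered together had 15 subclusters with at least 50 Cxcl1 UMIs. Cxcl1 was lower in GA in 10 of them and higher in 5, with a median log2 ratio of -0.11. Cxcl1 in neutrophil-like cells, 12.9 CPM in GA and 17.3 CPM in control, was near the 10.7 and 11.0 CPM of B cells. It was higher in single subclusters, with 28.0 CPM (14 UMIs) in GA and 77.5 CPM (31 UMIs) in control in that led by Clec4n, Ccl3, Csf1 and Ifit3.

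Cxcl5, a ligand known from stromal and epithelial cells, had a larger share of its UMIs in a single class than the other 4 ligands, 97.8% in mesenchymal lineage cells of GA and 98.7% in those of control. Its level was 225 CPM (221 to 230) in GA and 426 CPM (422 to 430) in control, a log2 ratio of -0.92 (-0.95 to -0.89). This was outside the range of the middle 80% of genes but short of 2-fold. Thinned to 2000 UMIs, a Cxcl5 UMI was present in 16.3% of mesenchymal lineage cells from GA and 22.2% of those from control, against 0.170% and 1.36% of B cells. Cxcl5 was also lower in GA in classes without cells of that lineage, with 1.50 and 6.02 CPM in B cells, 2.03 and 5.94 CPM in neutrophil-like cells and 2.04 and 5.96 CPM in macrophage-like cells. Within each library the level was similar across those classes. Summed mesenchymal marker RNA was 287 CPM in GA and 893 CPM in control B cells. It was 371 and 535 CPM in neutrophil-like cells and 515 and 522 CPM in macrophage-like cells. The part of mesenchymal RNA in these Cxcl5 values was not tested.

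Cxcl2, the chemokine of stimulated macrophages and neutrophils, was transcribed by both of these classes, in shares that differed between libraries. Macrophage-like cells held 46.6% of Cxcl2 UMIs in GA and 66.6% in control, and neutrophil-like cells held 30.1% and 8.69%. Levels within each class were close. Macrophage-like cells had 3991 CPM (3960 to 4021) in GA and 4259 CPM (4236 to 4282) in control, and neutrophil-like cells had 1087 CPM (1077 to 1097) and 1211 CPM (1193 to 1229). The log2 ratios were -0.09 (-0.11 to -0.08) and -0.16 (-0.18 to -0.13). Most neutrophil-like subclusters with enough UMIs went the other way, as given below. So did most subclusters of macrophage- and monocyte-like cells clustered together, which are not subclusters of macrophage-like cells alone. In neutrophil-like cells the median gene had a log2 ratio of -0.16 as well, so relative to it Cxcl2 stood at 0.0071, and naming each cell by its own marker score in place of its cluster turned the log2 ratio to 0.73. The share of cells with a Cxcl2 UMI after thinning was 76.9% and 76.2% for macrophage-like cells and 40.7% and 40.1% for neutrophil-like cells, against 3.74% and 5.27% of B cells. The level of Cxcl2 in neutrophil-like cells of GA was 0.898 times that of control. Neutrophil-like cells formed 52.0% of cells in GA and 26.7% in control, and macrophage-like cells 9.35% and 18.0%. The part of these cell numbers in the shares of Cxcl2 was not tested.

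**Figure D2:**
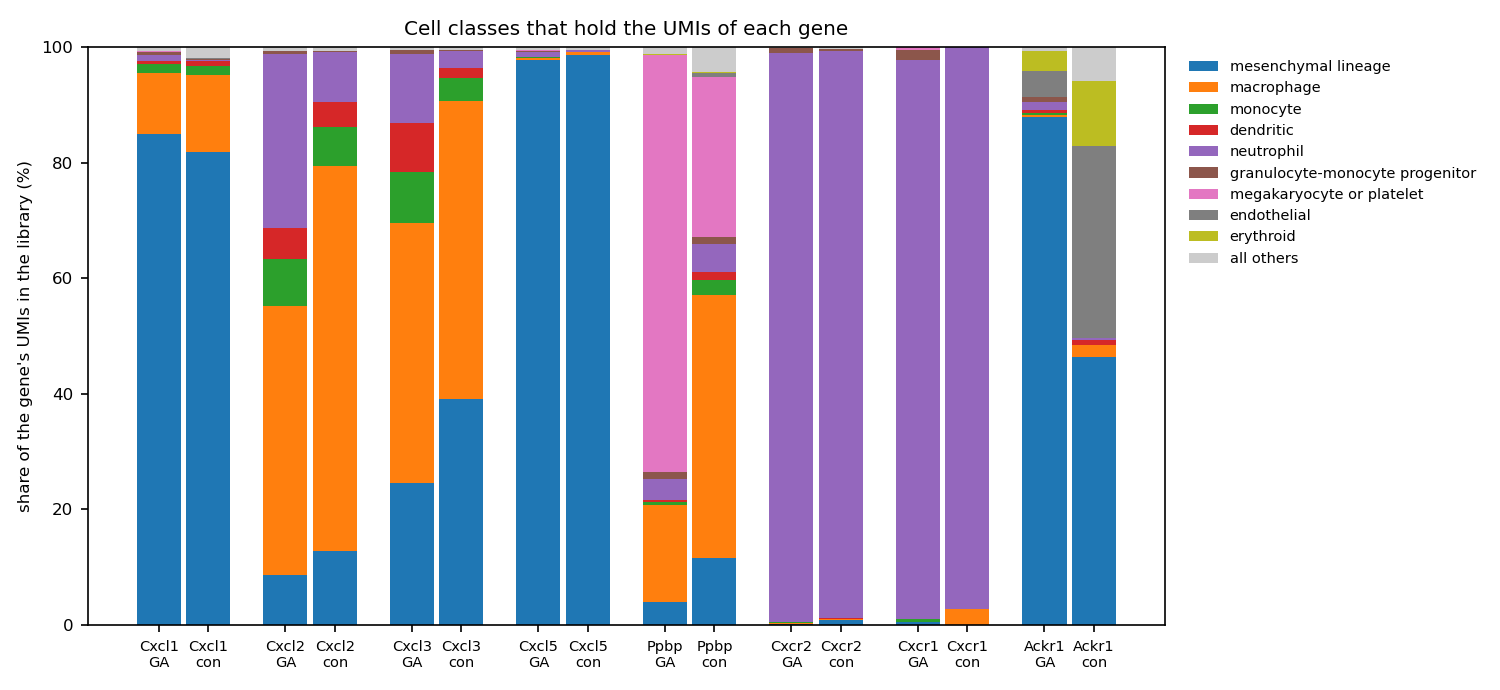
Share of each member's UMIs, in percent of all its UMIs in a library, held by each cell class in the GA and control libraries. Cxcl1 and Cxcl5 are held mostly by mesenchymal lineage cells and Cxcr2 by neutrophil-like cells in both libraries, while the neutrophil share of Cxcl2 is 30.1% in GA and 8.69% in control.

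Cxcl2 was also found in other classes. Monocyte-like cells had 1469 CPM in GA and 2837 CPM in control (log2 ratio -0.95), and dendritic-like cells had 2269 and 1528 CPM (0.57). The monocyte value depended on the clusters, since the log2 ratio was 0.67 when the libraries were clustered without Harmony. Mesenchymal lineage cells had 275 CPM (271 to 280) in GA and 261 CPM (258 to 264) in control, and held 8.62% and 12.8% of the message. Basophil- or mast-like cells had 1523 and 196 CPM, but 472 of the 483 UMIs in GA came from 5 cells of 26, and without the 5 highest cells of each library the log2 ratio went from 2.96 to 0.65. Cxcl2 in megakaryocyte- or platelet-like cells, 51.8 CPM in GA and 448 CPM in control, likewise rested on 5 control cells with 134 of 136 UMIs, and its log2 ratio turned from -3.11 to 1.04 without the highest cells.

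Cxcl3, a close relative of Cxcl1 and Cxcl2, had the fewest UMIs of the 3 and divided between macrophages and mesenchyme. Macrophage-like cells held 45.0% of its UMIs in GA and 51.5% in control, and mesenchymal lineage cells 24.6% and 39.1%. Its level in macrophage-like cells was 179 CPM (173 to 186) in GA and 231 CPM (226 to 237) in control, a log2 ratio of -0.37. Of 12 macrophage- and monocyte-like subclusters with at least 50 Cxcl3 UMIs, 6 were higher in GA and 6 lower. Mesenchymal lineage cells had 36.6 CPM (34.8 to 38.4) and 55.9 CPM (54.4 to 57.4), a log2 ratio of -0.61 (-0.69 to -0.53), and neutrophil-like cells had 20.1 and 29.0 CPM, a log2 ratio of -0.53 that turned to 0.86 with cells named by their own marker score. B cells had 2.11 and 2.32 CPM. Dendritic-like cells went the other way, with 161 CPM in GA and 44.5 CPM in control, but 5 GA cells held 475 of 555 UMIs and the log2 ratio fell from 1.85 to 0.59 without the highest cells.

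Ppbp marked megakaryocyte- or platelet-like cells, at 4271 CPM (4076 to 4472) over 48 cells of GA and 1493 CPM (1359 to 1637) over 29 cells of control. The log2 ratio was 1.52 (1.37 to 1.67), and 0.60 when doublets were kept. These cells held 72.2% of Ppbp UMIs in GA and 27.7% in control, and macrophage-like cells held 16.8% and 45.6%, the largest share of any class in control. Their summed mesenchymal marker RNA was 6538 CPM in GA and 330 CPM in control, so that the class was not equally pure in the libraries, and the part of this difference in the Ppbp values was not tested. The level in macrophage-like cells was 25.4 CPM in GA and 23.9 CPM in control. There the 5 highest cells held 255 of 422 UMIs in GA and 333 of 746 UMIs in control. The rest was spread over more cells. Ppbp was among the leading genes of the largest macrophage- and monocyte-like subcluster, of 459 cells led by Arg1, Tppp3 and Cav1. Leading genes had a UMI in at least 10% of the cells of a subcluster.

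Counted over the members with at least 50 UMIs in a class, few passed 2-fold in the classes with most cells. In mesenchymal lineage cells 1 of 7 did, against 4.97% of all genes there; this was Ackr1, higher in GA. In macrophage-like cells 1 of 5 did, against 3.14%, and in neutrophil-like cells 2 of 7, against 2.98%. Those were Cxcl5 in both classes and Ppbp in neutrophil-like cells, each lower in GA and each at a level like that of B cells. In monocyte-like cells 2 of 4 passed, Cxcl1 and Ppbp, against 3.87%, and in promyelocyte- or granulocyte-monocyte progenitor-like cells 2 of 5, Cxcr2 and Cxcl5, against 2.6%. Cxcl5 in these progenitor-like cells, at 1.135 CPM in GA and 4.01 CPM in control, was below the 1.50 and 6.02 CPM of B cells. In dendritic-like cells Cxcl3 passed, 1 of 3, against 3.5%. In megakaryocyte- or platelet-like cells Ppbp and Cxcl2 passed, 2 of 3, against 13.7%, and in basophil- or mast-like cells Cxcl2, 1 of 1, against 9.44%. In endothelial-like cells none of 3 passed, against 8.78%. Cxcl2 also passed, lower in GA, in 3 smaller classes, 1 of 2 members in each. T or NK-like cells had 25.76 CPM in GA and 82.45 CPM in control, a log2 ratio of -1.68. Osteoclast-like cells had 109.2 and 237.0 CPM (-1.12). Pericyte- or smooth muscle-like cells had 8.05 and 170.5 CPM (-4.40), where GA had 1 UMI over 6 cells. The share of all genes past 2-fold is not given for these classes. Each of these 3 Cxcl2 ratios changed sign under some alternative processing, as given below.

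**Figure D3:**
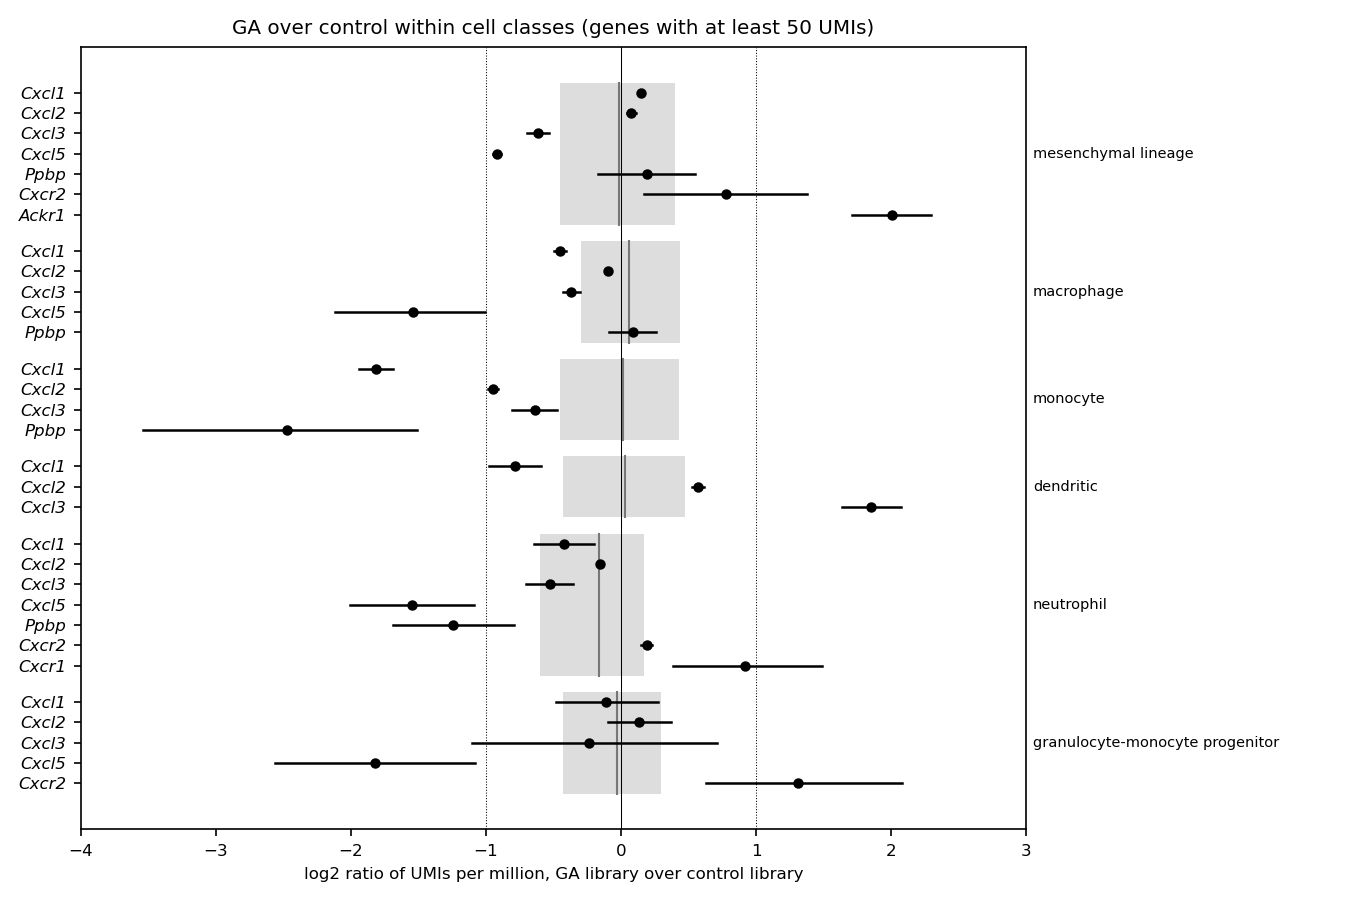
Ratio of GA over control on a log2 axis for each member with at least 50 UMIs in 6 cell classes, with bars for the exact 95% interval from counting, grey bands for the middle 80% of genes of the class, grey lines for their median and dotted lines at 2-fold. In mesenchymal lineage cells Cxcl1 and Cxcl2 lie inside the band, Cxcl5 lies below it at -0.92 and Ackr1 above it at 2.00.

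Cxcr2 was a neutrophil message in both libraries, and neutrophil-like cells held 98.5% of its UMIs in GA and 98.2% in control. Its level there was 531 CPM (524 to 538) in GA and 466 CPM (455 to 477) in control. The log2 ratio was 0.19 (0.15 to 0.23), or 0.35 relative to the median gene of these cells and 0.38 with cells named by their own marker score, against a range from -0.60 to 0.17 for the middle 80% of genes. After thinning, a Cxcr2 UMI was present in 63.5% (62.1 to 65.0) of neutrophil-like cells from GA and 59.3% (57.1 to 61.5) of those from control. Of B cells, 1 of 589 from GA had one, and 0 of 588 from control. Neutrophil-like cells were read to medians of 6912 and 4992 UMIs. The pooled 3.67-fold difference of Cxcr2 over all cells was thus 1.14-fold within the class that transcribed it.

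Outside neutrophils, basophil- or mast-like cells had Cxcr2 at 75.7 CPM in GA and 54.2 CPM in control, from 24 and 16 UMIs. Promyelocyte- or granulocyte-monocyte progenitor-like cells, the precursors of neutrophils, had 5.74 CPM (4.91 to 6.69) and 2.31 CPM (1.39 to 3.61), a log2 ratio of 1.31 (0.63 to 2.08). Their neutrophil marker RNA summed to 44480 and 49780 CPM. In macrophage-like cells Cxcr2 stood at 1.98 and 0.449 CPM and in mesenchymal lineage cells at 0.963 and 0.562 CPM. Both were higher in GA, as was neutrophil marker RNA in the same classes, and its part in those values was not tested.

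Cxcr1 gave 183 UMIs in the GA library and 35 in the control library, of which 177 and 34 were in neutrophil-like cells. This was 4.49 CPM (3.85 to 5.20) and 2.38 CPM (1.65 to 3.32), a log2 ratio of 0.92 (0.38 to 1.49). At this depth the receptor reached 50 UMIs in only 1 of the 20 neutrophil-like subclusters described below.

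Neutrophil-like cells were clustered again and named by stage from marker genes, because Cxcr2 is known to rise as neutrophils mature in the marrow. Cxcr2 stood at 37.2 CPM in GA and 20.4 CPM in control in dividing precursors, at 271 and 214 CPM in immature cells, at 963 and 822 CPM in mature cells and at 1081 and 1060 CPM in cells marked by chemokine and cytokine genes. Both libraries gave the same order of stages. The log2 ratio was 0.87 in dividing precursors, 0.34 in immature cells, 0.23 in mature cells and 0.03 (-0.04 to 0.10) in the chemokine and cytokine stage. Among all genes 1.27%, 2.22%, 2.79% and 4.78% passed 2-fold in these stages, and Cxcr2 passed in none. It was higher in GA in 16 of 20 subclusters, with log2 ratios from -0.13 to 1.26.

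Cxcl2 differed more widely between the same groups. The chemokine and cytokine stage is not a step of maturation, and Cxcl2 was among the leading genes of its largest subcluster. Cxcl2 stood at 21.4 CPM in GA and 28.4 CPM in control in dividing precursors, near the level in B cells. It was at 75.3 and 47.6 CPM in immature cells, 985 and 770 CPM in mature cells and 5966 and 7097 CPM in the chemokine and cytokine stage. The direction of the difference turned between groups. The log2 ratio was 0.66 in immature and 0.35 in mature cells and -0.25 (-0.28 to -0.22) in the chemokine and cytokine stage. Of the 17 neutrophil-like subclusters with at least 50 Cxcl2 UMIs, 11 were higher in GA and 6 lower, with a median log2 ratio of 0.54. Past 2-fold were 4, all higher, where between 1.27% and 25.1% of all genes passed over the 20 subclusters. The highest subcluster, led by Clec4n, Ccl3, Csf1 and Ifit3, had 12550 and 12880 CPM. Cxcl3 in the chemokine and cytokine stage was 122 and 174 CPM, and in mature cells 13.8 and 13.9 CPM. Cxcr1 in 1 subcluster of that stage, led by Steap4, Prr5l and Egr1, had 26.7 CPM from 62 UMIs in GA and 4.71 CPM from 3 UMIs in control.

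**Figure D4:**
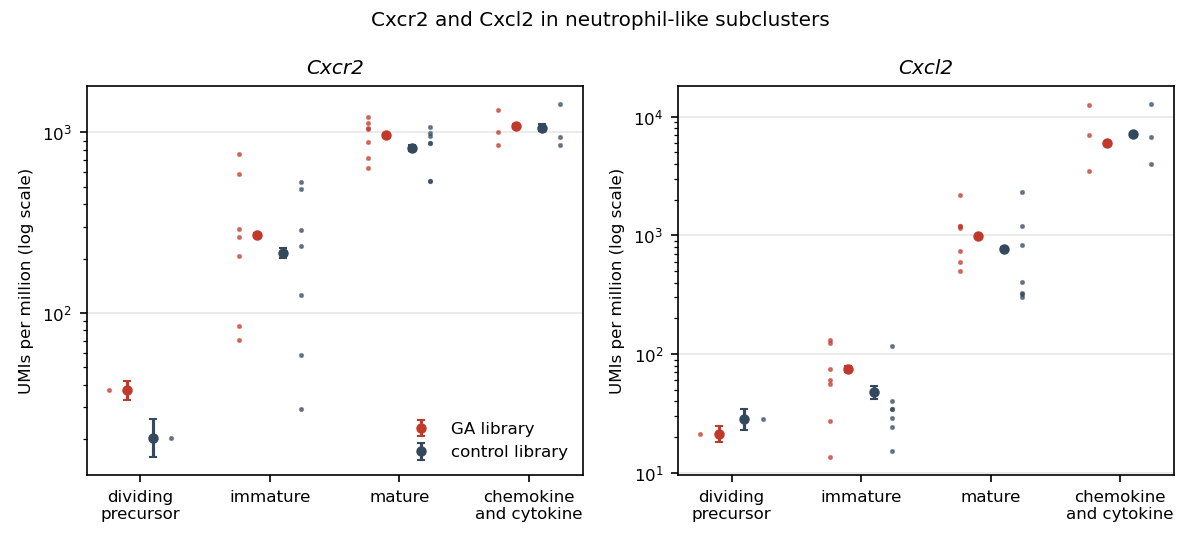
Levels of Cxcr2 and Cxcl2 in neutrophil-like cells by stage, in CPM on a log axis, for the GA and control libraries; large points are stages with exact 95% Poisson intervals and small points their subclusters. Cxcr2 climbs from 37.2 and 20.4 in dividing precursors to 963 and 822 in mature cells, and Cxcl2 climbs to 5966 and 7097 in the chemokine and cytokine stage.

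UMIs of the ligand and of its receptor were found in the same cells. After thinning, 31.3% (29.9 to 32.7) of GA and 28.7% (26.8 to 30.8) of control neutrophil-like cells had UMIs of both Cxcr2 and Cxcl2. In the chemokine and cytokine stage 61.3% and 60.3% had both, in mature cells 39.0% and 31.2%, and in immature cells 4.95% and 2.93%. Thinned Cxcr2 shares were 77.3% and 76.4% in the chemokine and cytokine stage, 80.8% and 72.2% in mature cells and 40.4% and 32.6% in immature cells. Those of Cxcl2 were 81.1% and 81.4% in the chemokine and cytokine stage and 47.1% and 41.8% in mature cells. In immature cells they were 9.25% and 8.37%. Whether the shares with both differed from those of separate detection was not tested. Cells below 2000 UMIs, 31 in GA and 26 in control, were left out of these shares.

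Mesenchymal lineage cells were likewise clustered again, into Cd34-high, multilineage progenitor, dividing, fibroblastic progenitor and osteogenic groups. The ligands belonged to the less differentiated groups. Cxcl1 stood at 1268 CPM in GA and 1421 CPM in control in Cd34-high cells, at 890 and 690 CPM in multilineage progenitors, at 582 and 777 CPM in dividing cells and at 115 and 174 CPM in fibroblastic progenitors. Osteogenic cells, which express osteocalcin and other bone matrix genes, had 15.5 CPM (11.6 to 20.3) in GA and 89.3 CPM (80.1 to 99.3) in control. This group pooled a subcluster led by Bglap and Bglap2, with 72 cells in GA and 44 in control, and another led by Ibsp, Fat3 and Alpl, with 16 and 40. The part of this mixture in the osteogenic values was not tested. Cxcl2 had the same lowest group in GA, with 344 and 413 CPM in Cd34-high cells and 16.1 and 30.3 CPM in osteogenic cells.

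The Cxcl5 difference was not even across these groups. Cd34-high cells had 251 CPM (245 to 257) in GA and 658 CPM (650 to 666) in control, a log2 ratio of -1.39 (-1.43 to -1.35), where 3.39% of all genes passed 2-fold. Dividing cells had 128 and 310 CPM, a log2 ratio of -1.27, where 3.91% passed. Multilineage progenitors had 318 and 450 CPM, a log2 ratio of -0.50, short of 2-fold, which 3.35% passed. Fibroblastic progenitors, with 2 UMIs in GA and 155 in control, and osteogenic cells, with 6 and 21, were near the level in B cells. Cxcl5 was lower in GA in each named group, but in B cells it was also lower, at 1.50 and 6.02 CPM. The part of this background in the fibroblastic and osteogenic values was not tested. Cxcl1 was lower in 4 groups and higher in multilineage progenitors.

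Among the single subclusters with at least 50 UMIs, Cxcl5 was lower in GA in 10 of 12 and past 2-fold lower in 6. Between 3.03% and 30.9% of all genes passed over the 15 subclusters. The lowest Cxcl5 levels among the 12, 0.898 CPM in GA and 8.51 CPM in control, were near the 1.50 and 6.02 CPM of B cells. The Cd34-high subcluster led by Pi16, Clec3b, C3 and Kcnj8 had 22.4 CPM (99 cells) in GA and 216 CPM (135 cells) in control, a log2 ratio of -3.27 (-3.56 to -2.99), with 4.01% of its genes past 2-fold. A related subcluster, led by Pi16, Clec3b, C3 and Saa3, had 441 CPM (58 cells) and 1444 CPM (150 cells), a log2 ratio of -1.71, with 5.66% of its genes past 2-fold. Cxcl1 in the latter was 2541 and 2451 CPM, so that neighbouring ligand genes differed in their ratio within the same cells. The multilineage subcluster led by Cxcl14, Matn4, Egfl6 and Tnmd went the other way, with Cxcl5 at 273 and 176 CPM and Cxcl1 at 933 and 461 CPM, and 4.1% of its genes past 2-fold. The other exception was an unnamed subcluster of 14 cells led by Rsad2 and Ifit3, with 182 Cxcl5 UMIs in GA and 3 in control.

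**Figure D5:**
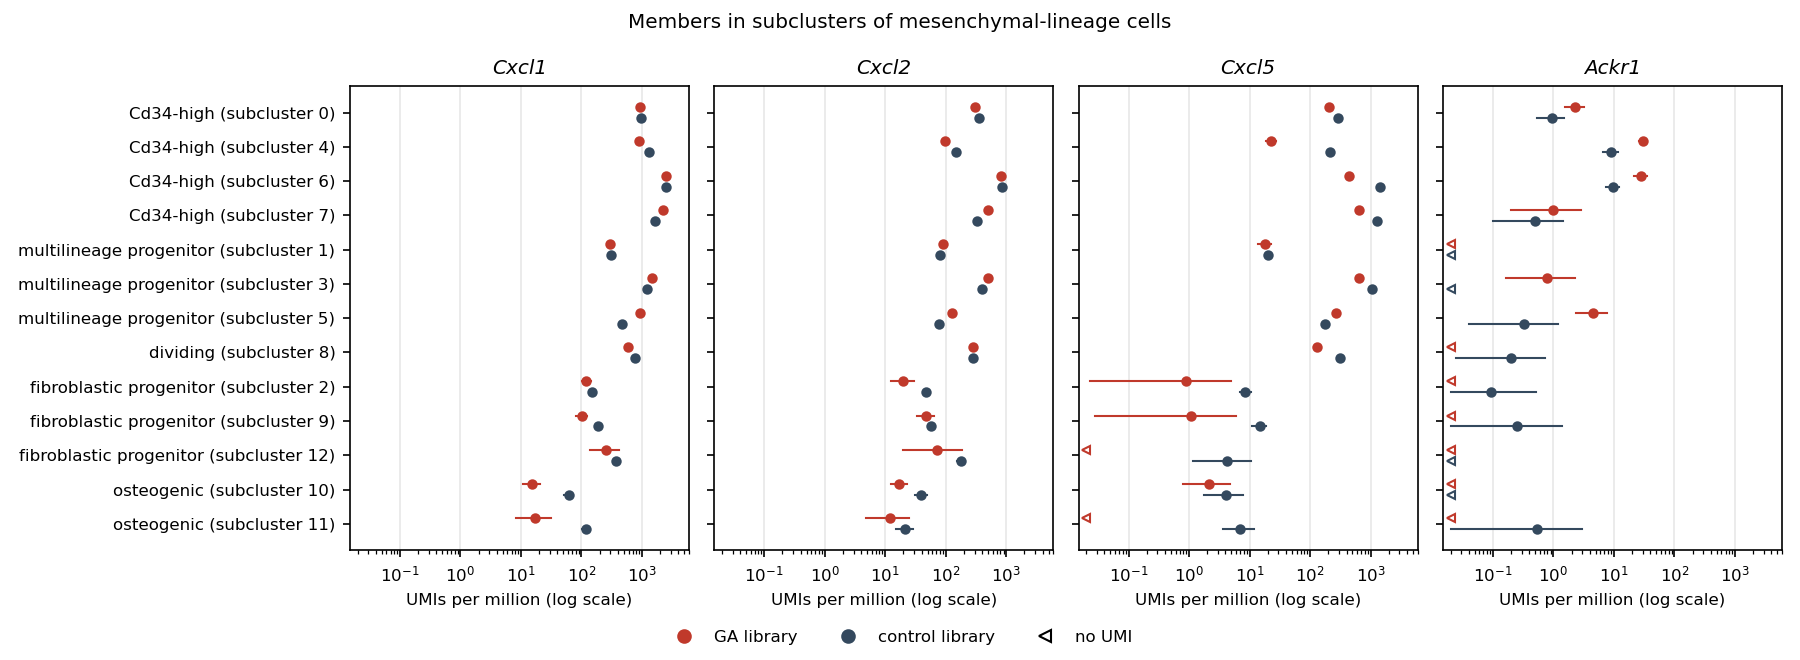
Levels of Cxcl1, Cxcl2, Cxcl5 and Ackr1 in the named subclusters of mesenchymal lineage cells, in CPM on a log axis, for the GA and control libraries, with exact 95% Poisson intervals and open triangles where no UMI was counted. Cxcl5 is lower in GA in each plotted subcluster but 1, the multilineage progenitors at 273 and 176 CPM. In the fibroblastic progenitor and osteogenic groups it is near the level in B cells. Ackr1 is highest in the Cd34-high subclusters with 30.2 and 27.8 CPM in GA.

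Ackr1, which captures chemokines without signalling, was a rare message found in mesenchymal as well as endothelial cells. Mesenchymal lineage cells had 276 UMIs in GA and 151 in control, or 6.18 CPM (5.47 to 6.96) and 1.54 CPM (1.31 to 1.81), a log2 ratio of 2.00 (1.71 to 2.30). A UMI was seen in 13.6% of the lineage in GA and 4.77% in control, where median depths were 51147 and 50697 UMIs. Cd34-high cells carried 260 of these UMIs in GA and 144 in control. The subcluster led by Pi16, Clec3b, C3 and Kcnj8 had 30.2 CPM (25.6 to 35.5) and 8.86 CPM (6.65 to 11.6), and that led by Pi16, Clec3b, C3 and Saa3 had 27.8 CPM (21.9 to 34.8) and 9.49 CPM (7.40 to 12.0). Cxcl5 was lower in GA in both of these subclusters, as it was in 10 of the 12 mesenchymal subclusters with at least 50 Cxcl5 UMIs.

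The last exon of Cadm3, an adhesion molecule gene on the same strand, overlaps Ackr1 from 173333390 to 173333750 on chromosome 1 (GRCm38), and the longest Ackr1 exon, from 173331890 to 173332929, lies outside this stretch. Cadm3 moved with Ackr1, at 14.2 CPM in GA and 3.47 CPM in control in mesenchymal lineage cells and at 71.3 and 16.4 CPM in the Pi16 and Kcnj8 subcluster. Reads of the shared stretch cannot be told apart between the genes. Endothelial-like cells had 43.4 CPM of Ackr1 (14 UMIs) in GA and 70.1 CPM (108 UMIs) in control, of which the 5 highest control cells held 94. Their median depth was 906 UMIs in GA and 28442 in control, with neutrophil marker RNA at 3822 and 149 CPM, and without the 5 highest cells the log2 ratio turned from -0.69 to 0.39. Venous endothelium is the known site of Ackr1. The subcluster named venous from 3 markers gave 3 UMIs over 24 cells of GA and 70 UMIs over 11 cells of control. This was 51.5 CPM (10.6 to 150.5) and 153.5 CPM (119.6 to 193.9), at median depths of 658 and 34230 UMIs. Its leading genes, with Cxcl9 and Fgf23 first, included no venous marker. Erythroid-like cells had 11 and 37 UMIs, or 44.0 and 22.2 CPM.

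Macrophage- and monocyte-like cells were also clustered again, a step chosen after the data were seen, and their 17 subclusters are named by leading genes alone. Cxcl2 was higher in GA in 12 of 17, past 2-fold higher in 3 and past 2-fold lower in 2, while from 2.75% to 24.3% of all genes passed in these subclusters. The highest level in both libraries was in the subcluster led by Gm16685, Areg, Serpinb2 and Cxcl3, with Ptgs2 and Il1b among its leading genes, at 14240 CPM (23 cells) in GA and 20810 CPM (39 cells) in control. The same cells had 1812 and 3274 CPM of Cxcl1 and 880 and 1654 CPM of Cxcl3. Cells led by Mmp12, Dcstamp and Ccl24 had 4681 and 9228 CPM of Cxcl2, and cells led by Arg1, Gsta3 and Dnmt3l had 1920 and 4287 CPM, with Cxcl1 at 318 and 1199 CPM and at 181 and 562 CPM. Antigen-presenting cells led by H2-Eb1, H2-Aa and H2-Ab1 had the opposite order, with 5159 and 2025 CPM of Cxcl2 and 304 and 114 CPM of Cxcl1. Also past 2-fold were 2 subclusters with lower levels, higher in GA, led by Gm9733, Arhgef37 and Plac8 (242 and 48.3 CPM) and by Ace, Adgre4 and Setbp1 (179 and 82.8 CPM), and 1 led by Iigp1 and Hspa1a, lower in GA (518 CPM from 7 cells and 2908 CPM from 46 cells). The subcluster led by Cd209f, Ccl8 and Cd163 had 9447 and 9062 CPM of Cxcl2. The subclusters led by Gm16685, by Gm9733 and by Ace scored highest for monocyte markers. The one led by Mmp12 scored highest for osteoclast markers and the one led by H2-Eb1 for dendritic markers. The others named in this paragraph scored highest for macrophage markers.

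The other genes of the pathway were read from gene lists in the 3 main classes, and their counts are descriptions with no test. Of all genes with at least 50 UMIs, 2.98% passed 2-fold in neutrophil-like, 3.14% in macrophage-like and 4.97% in mesenchymal lineage cells. In neutrophil-like cells none of 9 other chemoattractant receptors, 16 G protein signalling genes downstream of CXCR2, 12 desensitisation genes or 15 genes of transcription and mRNA control passed 2-fold. Fpr1, a formyl peptide receptor, had 218 CPM in GA and 167 CPM in control (log2 ratio 0.38), and Grk3, a receptor kinase, 2.26 and 3.98 CPM (-0.82). Of 12 inducers of the ligands 1 passed lower, the interleukin-1 receptor Il1r1, at 1.88 and 5.24 CPM, where mesenchymal lineage cells had 134 and 189 CPM and mesenchymal marker RNA in neutrophil-like cells was 371 and 535 summed CPM; its part in the value was not tested. Of 13 adhesion genes 1 passed lower, Icam1, at 18.1 and 36.5 CPM. Of 4 other CXC chemokines 1 passed lower (Cxcl16, log2 ratio -1.25), of 3 other CXC or atypical receptors none, of 15 dissociation response genes 1 lower (Hspa1a, -1.76), and of 8 inflammatory fibroblast genes 1 higher (Saa3, 1.62) and 2 lower (Csf1 at -1.36 the further). The list medians of log2 ratios lay at 0.03 for the chemoattractant receptors and -0.03 for the G protein genes, beside -0.16 for all genes of the class.

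In macrophage-like cells none of 12 inducers and none of 15 transcription and mRNA control genes passed 2-fold. Of 6 other CXC chemokines 1 passed higher, the interferon-induced Cxcl9, at 50.4 CPM in GA and 4.65 CPM in control, and 2 passed lower, of which Cxcl12 stood at 2.16 and 10.2 CPM. Ackr3, the atypical receptor of CXCL12, passed lower at 6.85 and 14.9 CPM. None of 16 G protein or 12 desensitisation genes passed, while of 9 other chemoattractant receptors 1 passed higher (Fpr2, log2 ratio 1.02) and of 9 inflammatory fibroblast genes 1 lower (Lif, -1.94). Dissociation response genes, which tissue digestion can induce, passed lower in 2 of 15, Hspa1a (log2 ratio -1.42) and Hspa1b (-1.33), while 11 of the 15 were higher in GA, with a list median of 0.18 beside 0.06 for all genes and 9036 and 7681 summed CPM.

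In mesenchymal lineage cells none of 15 transcription and mRNA control genes and none of 10 inflammatory fibroblast genes passed 2-fold. Of 7 other CXC chemokines 3 passed higher, led by Cxcl14 at 75.2 CPM in GA and 18.6 CPM in control. Of 13 inducers 1 passed each way; Csf3, which encodes the granulocyte growth factor G-CSF, was lower at 1.37 and 5.67 CPM, and Il1b was higher with a log2 ratio of 1.25. Of 8 other neutrophil chemoattractant receptors 4 passed higher, led by Fpr1 (1.91) and Fpr2 (1.60), with a list median of 1.05. Of 5 other CXC or atypical receptors 1 passed higher (Ackr2, 1.54) and 1 lower (Cxcr6, -1.46), of 14 G protein genes 1 higher (Rac2, 1.60) and 1 lower (Pik3r5, -1.01) and of 11 desensitisation genes 1 higher (Rgs18, 1.20). Neutrophil marker RNA was higher in the GA library in these same cells, at 827 and 207 summed CPM. Il1b, Rac2, Rgs18, Fpr1 and Fpr2 all had higher levels in neutrophil-like cells, of 2299, 955, 90.7, 218 and 276 CPM in GA, than in mesenchymal lineage cells, of 16.4, 5.82, 0.986, 0.806 and 1.39 CPM. The part of neutrophil RNA in their values here was not tested. None of 15 dissociation response genes passed 2-fold there, 11 being higher in GA, with 8028 and 6601 summed CPM.

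The genes whose pattern was most like each member were ranked by Pearson's r of log2(CPM + 1) over 18 sums, from 9 classes in both libraries, given as a description. For Cxcr2 they were Cstdc5 (0.99), Il1f9 (0.98) and Platr7 (0.98), and for Cxcr1 Cstdc5, Gm33326 and Stfa2 (0.98 each). Cxcl5 was most like Mgp, Postn and Cthrc1 (0.98 each), extracellular matrix genes, and Cxcl1 was most like Gm16685 (0.97), Cav1 (0.96) and Ccl7 (0.96). Cxcl2 was most like Tdrd7, Tiparp and Tgm2 (0.96 each), and Cxcl3 like Cxcl2 (0.96), Gm17749 (0.95) and Egr2 (0.95). For the rarer Ppbp the values were 0.93 for Txlnb, 0.87 for Kcnj10 and 0.84 for Mt3, and for Ackr1 0.97 for Hoxd4, 0.96 for Dmp1 and 0.96 for Adarb2. Only classes with at least 50 cells in each library entered these ranks. Megakaryocyte- or platelet-like cells, where Ppbp was highest, were therefore left out. Endothelial- and erythroid-like cells, where Ackr1 was highest, were left out as well. The sums of a class in the libraries share their cell type and sums of a library share its free RNA.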

How the data were processed

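Single-cell RNA was profiled from calvarial defects in 2 libraries of 5 pooled mice. The authors deposited raw UMI counts per gene and barcode. Per the file headers, Cell Ranger 7.0.1 made the matrices, whereas the methods of the study name another version. The genome build, mm10, is from the processing notes. The study used 10x 3′ chemistry, whose version its methods give in differing ways. All values here were computed from those counts. Barcodes with at least 500 UMIs, 200 to 9500 genes, at most 140000 UMIs and at most 15% mitochondrial UMIs were kept, and predicted doublets (674 in GA, 564 in control) were removed. Cells were clustered on 2000 variable genes without the 8 members, 50 principal components, Harmony over libraries and the Leiden method at resolution 1 (leidenalg 0.10.2, Python 3.11.15, scikit-learn 1.9.0), and clusters were named "-like" by marker genes. UMIs were summed per class and library. Intervals are exact: Poisson for levels, Clopper-Pearson for shares, conditional binomial for ratios (scipy 1.17.1). They cover counting error only. With 1 library a condition, no test was made; a ratio past 2-fold was counted among genes with at least 50 UMIs in the class. The ratio calculation was checked on simulated data.

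The 8 members and the gene lists were chosen with earlier results of these data known. The named genes were the members, the 3 genes most like each member by Pearson's r (at least 200 UMIs), and the 2 genes with the largest log2 ratio in each list. Shares of cells after thinning leave out cells below 2000 UMIs. RefSeq promoters of GRCm38.p6 gave the sequences. The adhesion list in macrophage-like and mesenchymal lineage cells is not reported here.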

Additional observations from a re-analysis of the deposited data

How the results depend on the processing

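No paired analysis was possible because each condition had 1 library, so the groups shared fewer than 2 replicate numbers, and no replicate was left out. Alternatives were another clustering resolution (0.5 or 2), no Harmony, members allowed among the variable genes, each cell named by its own marker score, doublets kept, a mitochondrial limit of 10%, at least 2000 UMIs, thinning to 2000 UMIs, ratios relative to the class median, subtraction of background, and leaving out the 5 cells with the most UMIs of the gene in each library. Of 60 values for the 5 main log2 ratios, 37 stayed inside the counting interval and 23 lay outside it. Of 481 values for the other 41 ratios, 346 lay inside and 128 outside, and 7 were ratios past 2-fold that changed sign. The cause of these shifts was not tested.

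Cxcl2 in neutrophil-like cells, -0.16 as reported, was -0.24 at resolution 0.5, 0.73 with cells named by their own score, -0.20 with doublets kept, -0.19 thinned, 0.0071 relative to the class median and -0.11 without the highest cells. Cxcr2 in neutrophil-like cells, 0.19, was 0.10 at resolution 0.5, 0.38 by own score, 0.11 thinned and 0.35 relative to the median. Cxcl2 in macrophage-like cells, -0.09, was -0.11 without Harmony, -0.12 by own score, -0.0797 with doublets kept, -0.11 thinned, -0.15 relative to the median and -0.12 without the highest cells. Cxcl1 in mesenchymal lineage cells, 0.15, was 0.10 by own score, 0.18 with doublets kept, 0.17 relative to the median and 0.13 without the highest cells. Cxcl5 there, -0.92, was -0.99 by own score, -0.75 with doublets kept and -1.07 without the highest cells.

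Among ratios past 2-fold, those that changed sign were all of Cxcl2 in classes with fewer cells: 0.23 in T or NK-like cells with doublets kept, 0.14 by own score and 1.04 without the highest cells in megakaryocyte- or platelet-like cells, 0.61 at resolution 2, 0.39 by own score and 0.33 at 10% mitochondrial UMIs in osteoclast-like cells, and 0.67 by own score in pericyte-like cells. Among ratios short of 2-fold in the main classes, Cxcl2 and Cxcl3 in neutrophil-like cells changed sign with cells named by their own score (0.73 and 0.86), Cxcl3 in monocyte-like cells was 1.52 without Harmony, and Cxcl2 in mesenchymal lineage cells was -0.02 without the highest cells. Depth limits Cxcr1 (35 UMIs in control) and endothelial Ackr1 (14 UMIs in GA).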
